A study of Oryza sativa with 12 samples.

Results

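The data described here are the root transcriptomes of R9308, the paternal restorer line of the super-hybrid rice Xieyou9308, sampled at tillering and again at heading. The comparison took 4 of the 12 RNA-Seq libraries of the series, 2 per stage, by the genotype and stage that their labels give, and all 42081 annotated transcripts of the count table, of which 29560 passed edgeR's filter on low counts and were tested. The maternal line Xieqingzao B and the F1 hybrid, with 2 libraries each per stage, entered the fit to estimate the spread and served as the genotypes compared with R9308. All plants were raised from seed in the field and moved as seedlings to floats on a pool of nutrient solution, so no group grew in soil after transplanting. All groups were untreated, and a library stands for a sampled root. The study calls the 2 libraries of a group biological replicates, but whether they came from separate plants is not given, so p-values measure only the spread between these libraries. The time of day and the position along the root are not given in the sources used here, and stage cannot be told apart from the date of sampling.

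At the tillering stage a rice plant adds shoots and crown roots, and much of the young root system is still elongating. At the heading stage the panicle emerges, the meristems have switched to reproduction, and the root system serves a full canopy with water, nitrogen and silicon. Silicon enters rice through an influx channel, Lsi1, and an efflux carrier, Lsi2, which lie on opposite faces of the same root cells, in the exodermis and endodermis of the mature root. Root elongation relies on cell division and on wall-loosening proteins such as expansins and xyloglucan endotransglycosylases.

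The 2 tillering libraries of R9308 did not resemble each other as closely as the 2 heading libraries. They held 10555249 (library 1) and 15830233 (library 2) assigned counts, against 8977219 and 9770489 at heading, and the 8 other libraries lay between 8209696 and 12567672. The distance between libraries (1 minus Pearson's r of log2(RPKM + 1)) was 0.0755 between the tillering libraries and 0.0311 between the heading libraries, and tillering library 2 lay nearer to a tillering library of Xieqingzao B (0.0513), to heading library 1 of R9308 (0.0672) and to both heading libraries of the hybrid (0.0655 and 0.0647) than to its own partner. The photosynthesis list took 1.60% of the counts of tillering library 1, against 0.0521% in tillering library 2 and 0.125% and 0.0963% in the heading libraries. In the 8 libraries of the other genotypes it took 0.0596% to 0.156%. The list holds leaf-type members, which mark green tissue, and also root-type electron carriers, so its share does not measure green tissue alone. Its ferredoxin III (Os03t0835900-01) had 2512 and 3310 counts at tillering and 3720 and 3645 at heading. Of the 97 tested members of that list, 76 were at least 10 times higher in tillering library 1 than in library 2, and 76 were higher there than in any other library. Over all 29560 tested transcripts, 1030 were at least 10 times higher in tillering library 1 than in library 2. Levels for that count had a floor of 0.1 CPM (counts scaled to library size). The excess in library 1 was thus not limited to the photosynthesis list. Of the 1030 transcripts, 0 were called between the stages. A Rubisco small subunit transcript (Os12t0291100-01) had 9484 counts in tillering library 1 and 7, 4 and 13 in the other R9308 libraries. Seed storage transcripts stayed between 0.00576% and 0.0179% of counts in the 4 libraries.

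**Figure D1:**
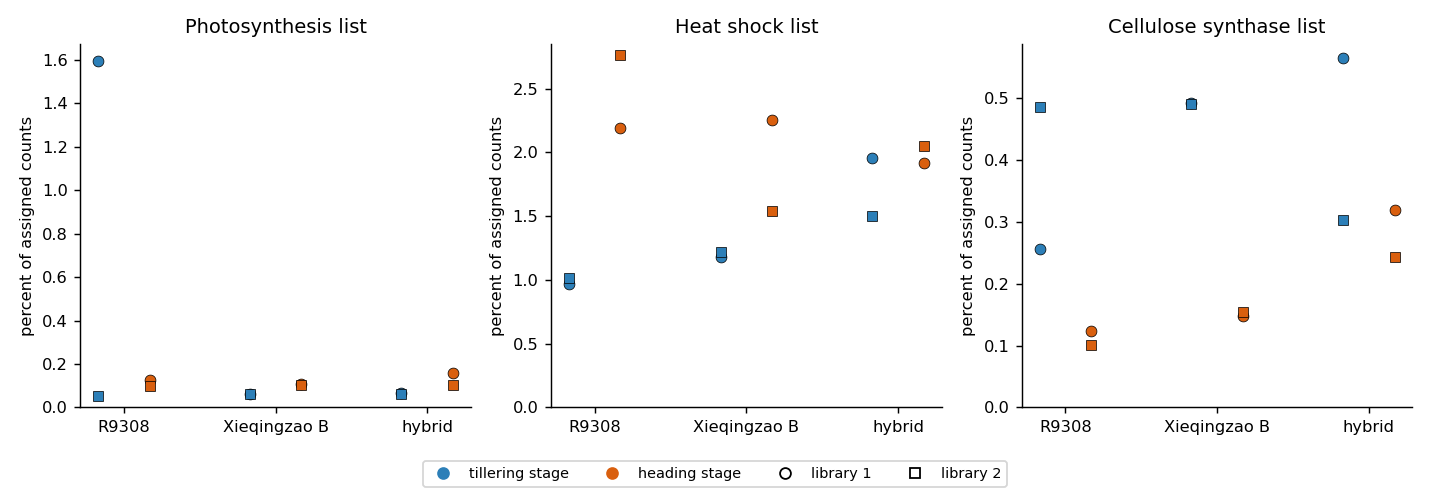
Share of assigned counts (vertical axis, percent, from 0) taken by the photosynthesis, heat shock and cellulose synthase lists in each of the 12 libraries. Blue marks the tillering stage and orange the heading stage, circles library 1 and squares library 2. Tillering library 1 of R9308 stands at 1.60% for photosynthesis while every other library stays at or below 0.156%, whereas both heading libraries of R9308 lie above both tillering libraries for heat shock and below them for cellulose synthase.

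The genotype labels were checked with transcripts that only a single parent expressed at heading. Of 103 transcripts with at least 100 counts in both R9308 heading libraries and at most 3 in both of Xieqingzao B, 93 and 97 had at least 100 counts in R9308 tillering libraries 1 and 2. In the other direction, 91 transcripts had at least 100 counts in both Xieqingzao B heading libraries and at most 3 in both of R9308. Of these, 36 and 68 had at most 3 counts in R9308 tillering libraries 1 and 2, and 14 and 6 had at least 100. In a stricter set, 57 transcripts had at least 100 counts in all 4 Xieqingzao B libraries and at most 3 in both R9308 heading libraries. Their median level was 1.02 CPM (counts scaled to library size) in R9308 tillering library 1 and 0.0638 in library 2, against 22.5 to 28.5 in Xieqingzao B, and 33 and 10 of them exceeded 3 counts in the R9308 tillering libraries. None of the 57 was called between the stages, but this is no test. They were chosen for at most 3 counts at heading, and most were also near the floor in tillering library 2. Both tillering libraries thus carried the transcripts expressed by R9308 alone at heading. Library 1 more than library 2 also held those of the other parent, at a low median level for the 57. The part of this in the stage comparison was not tested beyond leaving library 1 out. The calls, the gene lists and the differences between genotypes were therefore also computed without tillering library 1.

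Between heading and tillering, 356 transcripts of 354 loci were called in R9308 by edgeR's quasi-likelihood F-test, at a Benjamini-Hochberg adjusted p of at most 0.05 and a fold change of at least 2. The log2 fold changes are heading minus tillering. Of them 139 rose, which is 0.47% of those tested, and 217 fell, which is 0.734%, and together they make 1.2%. Among the falls, 79 were at least 8-fold (a log2 fold change of 3 or beyond), and among the rises 31 were. The median log2 fold change was 2.23 over the rises and -2.65 over the falls, against -0.09 over all tested transcripts. At an unadjusted p under 0.05, 2506 transcripts were higher and 3564 lower at heading. The 2 heading libraries lay on a single side of the 2 tillering libraries for all 356 calls, where 26.7% of all tested transcripts lay above and 31.1% below without overlap.

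Without tillering library 1, edgeR called 0 transcripts (lowest adjusted p 0.0798, with 4182 at an unadjusted p under 0.05), in a fit where the lone tillering library is assumed to vary like the other groups. All 356 calls kept their direction in that fit, which follows from the lack of overlap given above and is no test of them. DESeq2 without tillering library 1 called 1491 transcripts, 684 up (2.31%) and 807 down (2.73%), and 353 of the 356 were among them. The other 3 (Os02t0276200-01, Os09t0542700-00 and Os07t0695300-02, at under 5 RPKM in every R9308 library) received no adjusted p from DESeq2. The edgeR calls lay close to the threshold (lowest adjusted p 0.0196), and their number also fell to 0 without either heading library or without either heading library of the hybrid. The 65 calls named below kept their direction without tillering library 1 for the same reason. Their log2 fold changes then moved by a median of 0.19 and at most 1.19, and 7 moved by more than 0.5. All levels below are RPKM (reads scaled to transcript length and library size), in the order tillering library 1, tillering library 2, heading library 1, heading library 2.

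Of the 3 loci of the silicon list, Lsi1 and Lsi2, which also carry arsenic species, rose at heading and the other fell. Lsi1 (Os02t0745100-01, silicon influx) measured 128, 125, 908 and 777 RPKM, and Lsi2 (Os03t0107300-01, silicon efflux) measured 72.8, 56.0, 631 and 563. The heading libraries lay far above the tillering libraries for both, by a log2 fold change of 2.81 ± 0.47 (SE, n = 2 libraries per stage, edgeR adjusted p = 0.0413) for Lsi1 and 3.28 ± 0.53 (adjusted p = 0.0408) for Lsi2. Without tillering library 1 they stood at 2.81 and 3.47. The other locus of the list, Os06t0228200, is a NIP-type channel annotated as similar to the maize protein ZmNIP2-2. It was lower in both heading libraries in all 3 of its transcripts. Its transcript Os06t0228200-03 measured 6.50, 13.0, 0.802 and 0.433 RPKM (log2 fold change -3.91 ± 0.74, adjusted p = 0.0495). The main transcript of that locus, Os06t0228200-01, measured 23.4, 44.4, 2.85 and 0.806 and was not called by edgeR (adjusted p = 0.0748). Of the 5 tested transcripts of the silicon list, 2 were thus called up and 1 down, and the list median was -3.52 (-2.67 without tillering library 1), with 3 of the 5 transcripts from that single locus.

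Lsi1 and Lsi2 also marked the tissue as root, in 6 marker transcripts taken for that purpose. The root protein RCc3 (Os02t0662000-01) measured 300, 482, 43.1 and 12.9 RPKM, lower at heading in both libraries, but it was not called (log2 fold change -3.73 ± 1.16, edgeR adjusted p = 0.133). RCc3 was called by DESeq2 without tillering library 1 (adjusted p = 0.0266). A GRAS-domain transcription factor (Os07t0586900-01) stayed between 2.47 and 3.32 in all 4 libraries. No root marker was at 0 in any R9308 library.

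Nitrate uptake transcripts had large fold changes but were not called by edgeR. Os02t0112100-00, annotated as similar to BCH2, a high-affinity nitrate transporter of barley, measured 8.04, 4.08, 197 and 153 RPKM (log2 fold change 4.93 ± 1.55, edgeR adjusted p = 0.134). The neighbouring copy Os02t0112600-01 measured 18.2, 20.4, 292 and 150, and such near-identical copies may share reads. A transcript similar to the nitrate transporter NRT2.5 (Os01t0704100-02) measured 19.2, 9.18, 225 and 104 (adjusted p = 0.121). Ferredoxin-nitrite reductase, which reduces nitrite to ammonium in plastids, measured 35.7, 16.2, 77.1 and 61.7 for Os01t0357100-01. These transcripts were higher in both heading libraries than in both tillering libraries, and in the hybrid tillering libraries, which entered the fit, Os02t0112100-00 stood at 11.2 and 0. Of the 28 tested members of the nitrogen list, 0 were called by edgeR, though 8 members lay higher and 2 lower by the unadjusted p under 0.05. DESeq2 called 4 up without tillering library 1, where the list median went from 0.65 to 1.3. The most abundant glutamine synthetase, annotated as the shoot isozyme (Os02t0735200-02), measured 532, 552, 348 and 233, lower in both heading libraries but not called by edgeR (-0.83 ± 0.30, adjusted p = 0.179). DESeq2 gave it an adjusted p of 0.0404 with all libraries and 0.182 without tillering library 1. The root isozyme (Os03t0223400-01) measured 219, 121, 202 and 172 and overlapped between the stages.

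The photosynthesis list contained 0 calls among its 97 tested members, although its median log2 fold change was -6.79. Without tillering library 1 the median was 0.24, against a median of 9.99e-05 over all tested transcripts in that fit, and 55 members were then higher and 25 lower at heading. DESeq2 without that library called 5 members up and 1 down. Of the 5 up, 4 were the root-type electron carriers that pass electrons to nitrite reductase in non-green plastids, from 3 loci. Root ferredoxin R-B1 (Os01t0860601-01) measured 65.3, 40.1, 126 and 104 RPKM (DESeq2 adjusted p without library 1 = 0.0156). The root isozyme of ferredoxin-NADP reductase (Os03t0784700-01) measured 38.4, 41.7, 161 and 92.0 (0.0375 by the same test), and ferredoxin VI (Os05t0443500-01) measured 29.4, 27.3, 114 and 56.3 (0.0195). For these 3 transcripts tillering library 1 lay much nearer to library 2 than it did for the leaf-type members. The fourth, a second transcript of the reductase locus (Os03t0784700-02), measured 24.0, 10.2, 133 and 73.1. The fifth was a photosystem II oxygen-evolving protein (Os01t0501800-01), at 286, 0.285, 1.26 and 2.15. It had 4020, 6, 15 and 28 counts, so its rise without library 1 rests on few counts. With all libraries its log2 fold change was -6.30. These members and those of the nitrogen list were picked after their values were seen.

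Of the flowering and MADS-box list, 3 transcripts rose at heading. MADS14, MADS15 and MADS18 belong to the APETALA1/FRUITFULL-like group, which acts in rice when the shoot meristem turns to flowering. MADS15 (Os07t0108900-01) measured 0, 0, 3.83 and 3.04 RPKM, with 0 counts in either tillering library and 88 and 76 at heading, which makes it at least 39.2-fold higher against a floor of 3 counts per library. MADS14 (Os03t0752800-01) measured 0.638, 0.638, 9.63 and 6.72 (log2 fold change 3.74 ± 0.65, edgeR adjusted p = 0.0427). MADS18 (Os07t0605200-01), the most abundant of the 3, measured 15.9, 13.4, 62.2 and 67.5 (2.21 ± 0.28, adjusted p = 0.0326). They were 3 of 40 tested members, of which 25 had a log2 fold change above 0 and 15 below. The list median was 0.53, and 0.61 without tillering library 1, where DESeq2 called 5 up and 1 down. All 3 were also called in the hybrid (log2 fold changes 6.85, 4.73 and 2.28 for MADS15, MADS14 and MADS18), and in Xieqingzao B the heading libraries were also above the tillering libraries. The rise of MADS15 was larger in R9308 than in Xieqingzao B by DESeq2's interaction test (adjusted p = 0.00647), not by edgeR's (0.19) or by DESeq2's without tillering library 1 (0.113).

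In the circadian clock list 1 of 38 tested members was called. LHY (Os08t0157600-01), a Myb factor of the central clock with a morning peak in plants, measured 15.3, 17.1, 68.3 and 79.1 RPKM (2.25 ± 0.28, adjusted p = 0.0280). In Xieqingzao B it measured 14.8 and 16.6 at tillering and 162 and 163 at heading, whereas in the hybrid all 4 libraries lay between 13.5 and 20.3. The list median was 0.07, and 0.20 without tillering library 1, where DESeq2 called 1 up and 0 down.

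**Figure D2:**
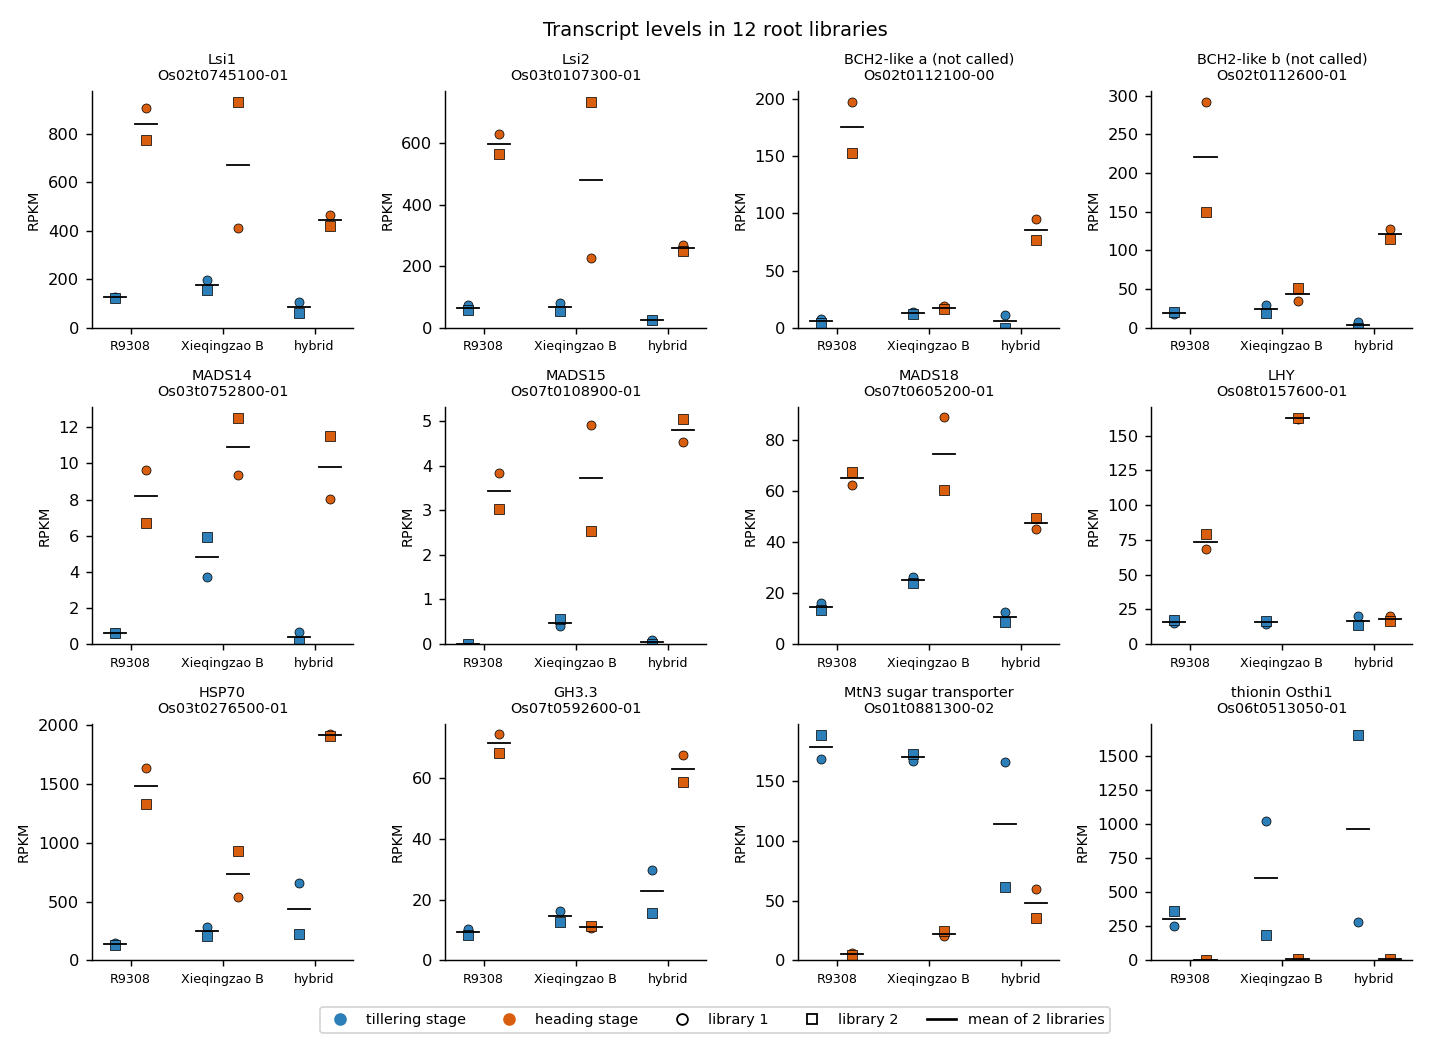
RPKM (vertical axis, linear, from 0) of 12 transcripts in the 12 libraries, by genotype, with tillering in blue, heading in orange, circles for library 1, squares for library 2 and a line at the mean of the 2. In R9308 Lsi1 rose from about 126 to 843 RPKM and LHY from 16.2 to 73.7, while the MtN3 transcript fell from 179 to 5.41. The 2 BCH2-like transcripts were not called.

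Heat shock and chaperone transcripts took 0.967% and 1.01% of the counts at tillering and 2.19% and 2.76% at heading. An HSP70 transcript (Os03t0276500-01), a chaperone, measured 146, 133, 1636 and 1325 RPKM (3.48 ± 0.58, adjusted p = 0.0419). A heat shock transcription factor (Os02t0527300-01, similar to HSF 31) measured 13.2, 10.1, 112 and 78.7 (3.11 ± 0.58, adjusted p = 0.0489). The other calls were a heat shock-like protein (Os02t0782300-01, 1.64 ± 0.22) and a transcript similar to the stromal 70 kDa chaperone (Os12t0244100-02, 1.32 ± 0.25). The last was not called when counts were summed over its locus. Of the 165 tested members 4 were called up and 0 down, 72 lay above without overlap and 35 below, and the median was 0.25. Without tillering library 1, DESeq2 called 11 up and 5 down. The HSF transcript was at 17, 12.7, 11 and 6.80 RPKM in Xieqingzao B, and DESeq2 found the stage change to differ from that of R9308 (interaction adjusted p = 0.000221, edgeR 0.18).

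On the jasmonate list 3 of 47 tested transcripts were called, all up, while at an unadjusted p under 0.05 there were 8 higher and 5 lower. DESeq2 without tillering library 1 called 5 up and 3 down. Allene oxide synthase (Os03t0767000-01), an early enzyme of jasmonate synthesis, measured 32.6, 35.5, 241 and 123 RPKM (2.49 ± 0.42, adjusted p = 0.0423). A Tify-domain transcript (Os03t0402800-01), of the family that includes the JAZ repressors, measured 148, 176, 858 and 590 (2.23 ± 0.39, adjusted p = 0.0427). The ZIM-motif transcript Os09t0401300-02 measured 34.0, 36.1, 76.1 and 65.2 (1.08 ± 0.20). Its locus sum (0.89) was not called. The list median was 0.16, with 26 members higher and 21 lower. In Xieqingzao B none of the 3 was higher at heading (log2 fold changes -0.12, -0.54 and -0.23). The interaction reached adjusted p-values of 0.00153, 4.07e-05 and 4.72e-05 in DESeq2 and 0.17 to 0.19 in edgeR.

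Among hormone transcripts, an auxin-amido synthetase rose most clearly. GH3.3 (Os07t0592600-01), an enzyme that conjugates auxin to amino acids, measured 10.4, 8.51, 74.5 and 68.1 RPKM (2.99 ± 0.35, adjusted p = 0.0275). In Xieqingzao B it measured 16.2, 12.7, 10.8 and 11.3, and the interaction had an adjusted p of 2.31e-08 in DESeq2 and 0.15 in edgeR. A transcript similar to auxin response factor 10 (Os04t0519700-01) measured 4.59, 5.99, 35.2 and 25.8 (2.59 ± 0.40). An Aux/IAA transcript (Os12t0601300-01), of the family of auxin-response repressors, fell from 27.5 and 46.7 to 7.58 and 3.84 (-2.63 ± 0.50). On the auxin list 2 were called up and 1 down of 152 tested, with a median of -0.09, the same as over all transcripts, and DESeq2 without tillering library 1 called 4 up and 7 down. Ent-kaurene oxidase (Os06t0570100-01), a step of gibberellin synthesis, fell from 14.6 and 16.9 to 2.65 and 2.43 (-2.56 ± 0.27, adjusted p = 0.0251), the single call of 31 on the gibberellin list, where DESeq2 without tillering library 1 called 2 up and 3 down. A transcript similar to kaurene synthase A, which also fell and is given below, was not on the gibberellin list. The cytokinin list had 1 call of 17, a transcript annotated as a hypothetical protein (Os01t0197700-01) with 67, 258, 1 and 0 counts. The abscisic acid, ethylene, strigolactone and crown root lists had 0 edgeR calls among 85, 23, 6 and 5 tested, with 8, 1, 0 and 0 higher and 11, 2, 0 and 1 lower at an unadjusted p under 0.05. DESeq2 without tillering library 1 called 2 up and 4 down on the abscisic acid list and none on the other 3. On those lists the kinase SAPK2 (Os07t0622000-01) measured 115, 146, 623 and 521, and an EIN3-family transcript (Os07t0685700-01) 107, 133, 279 and 197, neither called.

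Of the expansins and xyloglucan endotransglycosylases, which loosen and remodel the wall, 3 transcripts fell. The list as a whole took 0.168% and 0.262% of the counts at tillering and 0.0782% and 0.0368% at heading. OsEXPA1 (Os04t0228400-01), an alpha-expansin, measured 19.9, 32.2, 2.65 and 0.992 RPKM (-3.77 ± 0.70, adjusted p = 0.0484). A beta-expansin (Os10t0555600-01) measured 175, 322, 31.6 and 13.6 (-3.39 ± 0.51, adjusted p = 0.0372), and xyloglucan endotransglycosylase 8 (Os08t0237000-01) 350, 529, 92.4 and 56.0 (-2.50 ± 0.43). These were 3 of 50 tested members. In all, 45 had a log2 fold change below 0 and 37 lay below without overlap, with a median of -1.90 (-2.23 without tillering library 1), and DESeq2 without that library called 13 down and 1 up. In Xieqingzao B the median was -2.71.

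Cellulose synthase transcripts had 0 edgeR calls among 27 tested, though 10 were lower and none higher by the unadjusted p under 0.05, and 17 lay below without overlap. Their median was -1.47, and -1.62 without tillering library 1, where DESeq2 called 6 down and 1 up. Cellulose synthase-7 (Os07t0424400-01), picked after its values were seen, measured 105, 188, 18.5 and 16.6 RPKM (-3.0 ± 0.75, edgeR adjusted p = 0.0863). Cellulose synthase-4 (Os07t0208500-01) measured 95.1, 216, 45.7 and 32.9 (adjusted p = 0.0999), and was called once counts were summed per locus. Cellulose synthase-8 (Os07t0252400-01) overlapped between the stages, at 76.7, 186, 83.1 and 74.0. The 27 transcripts come from 9 loci, so they share reads.

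Tubulins form the microtubules of spindle and cell cortex, and their list was added after values had been seen. Of 26 tested, 3 were called, all beta-tubulins and all down. Os05t0413200-01 measured 40.4, 67.2, 7.33 and 5.34 RPKM (-3.02 ± 0.53), Os01t0805900-01 measured 77.9, 136, 18.7 and 8.76 (-2.89 ± 0.45), and Os03t0661300-01 measured 39.3, 63.0, 13.0 and 6.36 (-2.33 ± 0.40). In Xieqingzao B their log2 fold changes were -2.61, -2.70 and -2.50, and in the hybrid -2.11, -2.01 and 0.33. For the last the interaction with the hybrid had an unadjusted p of 0.00098 and an adjusted p of 0.135 in edgeR. The list median was -0.72, and DESeq2 without tillering library 1 called 7 down and 0 up.

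Of the DNA replication and mitosis list, 3 transcripts fell. The catalytic subunit of DNA polymerase alpha (Os01t0868300-01) measured 2.76, 4.61, 0.930 and 0.834 RPKM (-2.0 ± 0.31, adjusted p = 0.0401), and the kinesins Os01t0625200-01 and Os05t0117798-01 changed by -1.82 ± 0.32 and -1.57 ± 0.27. Of 117 tested members 84 had a log2 fold change below 0 and 32 above, 62 lay below without overlap, and the median was -0.89, and -0.93 without tillering library 1, where DESeq2 called 9 down and 1 up. Histones (0 called of 48, median -0.56) and ribosomal proteins (0 called of 395, median -0.56) had medians below that of all transcripts, and 249 of the 395 ribosomal protein transcripts lay below without overlap. None of the 48 histone transcripts reached an unadjusted p under 0.05. For ribosomal proteins 64 were lower and 3 higher at that level, and DESeq2 without tillering library 1 called 2 down. The 2 most abundant histones, both H3.3 (Os06t0130900-00 and Os03t0390600-02), were not called (409, 434, 608 and 487 RPKM, and 493, 344, 528 and 476). In bulk roots, fewer cells of a type and less RNA per cell cannot be told apart.

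**Figure D3:**
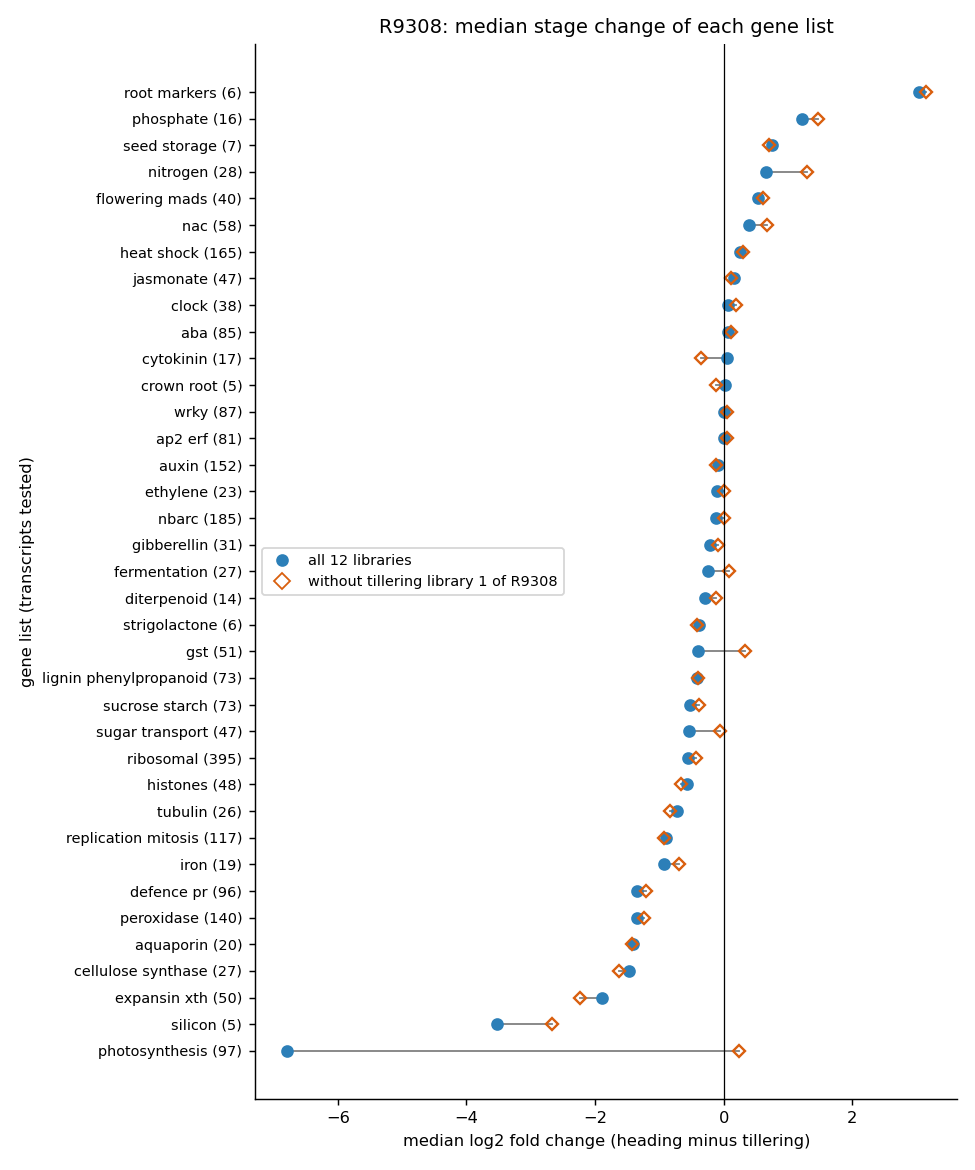
Median log2 fold change (horizontal axis, heading minus tillering) of the tested transcripts of each of the 37 gene lists in R9308, with all 12 libraries (filled circles) and without tillering library 1 (open diamonds). The photosynthesis median moved from -6.79 to 0.24, while those of expansins and related proteins (-1.90 and -2.23) and cellulose synthases (-1.47 and -1.62) stayed low.

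The largest falls by fitted value included transcripts with 0 counts at heading, and those named here also had a mean of at least 5 RPKM. Thionins and BURP-domain proteins were grouped after their values were seen. Thionin Osthi1 (Os06t0513050-01), an antimicrobial peptide precursor, measured 250, 359, 2.59 and 2.53 RPKM (-6.82 ± 1.12, adjusted p = 0.0413), and a Ligatoxin B-like thionin (Os06t0513943-01) measured 431, 825, 10.7 and 3.00 (-6.45 ± 0.91, adjusted p = 0.0372). They were 2 of 10 tested thionins, a family of near-identical copies that may share reads. A BURP-domain transcript, Os05t0217700-01, measured 185, 187, 2.35 and 0.564 (-6.92 ± 1.01), and a second one, Os05t0215066-00, had 658 and 592 counts at tillering and 3 and 0 at heading, so that 2 of 5 tested BURP transcripts were called. The second was at 0 RPKM in both Xieqingzao B tillering libraries. A transcript similar to disease resistance response protein 206 (Os07t0106700-01) measured 23.5 and 18.8 RPKM at tillering and had 0 counts in either heading library, at least 62.0-fold lower against a floor of 3 counts per library. A DESeq2 call in the same direction without tillering library 1 was a condition for naming these transcripts, so it is no added support for them.

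For 2 loci among the largest falls, the other transcripts of the locus did not follow. Os10t0530900-01 (glutathione S-transferase 30) fell from 31.8 and 8.70 RPKM to 0 in both heading libraries, while Os10t0530900-02 measured 8.86, 11.9, 6.48 and 7.32. Os03t0336600-02 (a reticulon, which shapes endoplasmic reticulum) fell from 7.03 and 25.8 to 0, while Os03t0336600-01 measured 17.4, 0.0632, 16.6 and 20.6. Summed per locus, the log2 fold changes were -2.05 and -0.38 and neither was called. These calls are of the share of reads assigned to a transcript.

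Single enzymes of terpenoid and phenolic synthesis fell. A transcript similar to kaurene synthase A (Os02t0278700-01) fell from 13.2 and 20.7 to 0.265 and 0.174 RPKM (-6.19 ± 0.72, edgeR adjusted p = 0.0275). It fell more than in Xieqingzao B (-1.41, DESeq2 interaction adjusted p = 0.000116, edgeR 0.16). It was on neither the gibberellin list nor the diterpenoid list, so their counts leave it out. A phenylalanine ammonia-lyase (Os04t0518400-01), the entry enzyme of phenylpropanoid synthesis, measured 82.4, 34.0, 10.1 and 7.55 (-2.65 ± 0.44), and -1.89 without tillering library 1. It was 1 of 73 tested on the lignin list (median -0.42, and -0.40 without tillering library 1, where DESeq2 called 1 up and 7 down). An isoflavone reductase homologue (Os01t0106400-01) measured 72.0, 52.1, 1.85 and 3.90 (-4.36 ± 0.72). Class III peroxidases had 2 falls and 1 rise of 140 tested and a median of -1.35 (-1.24 without tillering library 1, where DESeq2 called 4 up and 9 down). The most abundant of the 3, Os01t0327400-01, measured 145, 172, 29.6 and 28.1 (-2.39 ± 0.35, adjusted p = 0.0372), while in Xieqingzao B it did not fall (0.11, DESeq2 interaction adjusted p = 0.000321, edgeR 0.17). The pathogenesis-related list had 0 edgeR calls of 96, though 28 were lower and 4 higher by the unadjusted p under 0.05, and a median of -1.35, and DESeq2 without tillering library 1 called 12 down and 1 up. A PR1a-like transcript (Os07t0129200-01) measured 757, 659, 63.2 and 21.8 (edgeR adjusted p = 0.116). The diterpenoid list had 0 calls of 14 (2 lower at an unadjusted p under 0.05, and 0 in DESeq2 without tillering library 1).

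Ion, water and sugar transporters moved in both directions. A transcript of the MtN3/saliva family (Os01t0881300-02), whose plant members carry sugars across membranes, measured 169, 189, 6.56 and 4.25 RPKM (-4.98 ± 0.57, adjusted p = 0.0275), the single call of 47 sugar transporters, where DESeq2 without tillering library 1 called 3 up and 1 down. A high-affinity potassium transporter (Os09t0448200-02) measured 30.2, 38.8, 1.19 and 0.916 (-4.96 ± 0.74). A second potassium transporter (Os03t0337500-00) fell from 8.20 and 11.6 to 2.19 and 1.93, while a channel similar to SKOR (Os04t0445000-01), which in Arabidopsis releases potassium into the xylem, rose from 2.53 and 1.34 to 11.9 and 8.52 (2.48 ± 0.46, adjusted p = 0.0484). OsNramp1 (Os07t0257200-01), of a family of metal transporters, rose from 12.8 and 13.3 to 62.1 and 88.3 (2.59 ± 0.43), and its log2 fold change in Xieqingzao B was 2.57. A sulfate transporter (Os06t0143700-01) rose from 9.08 and 6.41 to 24.4 and 35.5. These last 4 were named after their values were seen.

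The root-to-shoot phosphate transporter (Os02t0809800-01) measured 25.4, 24.3, 71.0 and 73.6 RPKM (1.61 ± 0.25, adjusted p = 0.0408), the single call of 16 on the phosphate list, whose median was 1.21 and where DESeq2 without tillering library 1 called 2 up and 0 down. An ids4-like transcript (Os03t0406100-01) measured 2.35, 2.22, 22.4 and 22.2 (3.34 ± 0.59). Among 20 tested aquaporins, Lsi1 rose and 2 tonoplast channels fell. The delta-type Os06t0336200-01 measured 201, 245, 36.5 and 49.7 (-2.31 ± 0.40), and Os03t0146100-04 measured 99.9, 92.7, 18.5 and 20.1 (-2.25 ± 0.34, not called when summed per locus). Neither fell in Xieqingzao B (0.62 and 0.34), and the interaction had DESeq2 adjusted p-values of 0.000144 and 8.28e-05 (edgeR 0.17 and 0.16). The iron list had 0 calls of 19 (6 lower and 0 higher at an unadjusted p under 0.05, and 3 down in DESeq2 without tillering library 1). Its nicotianamine synthase 1 (Os03t0307300-01), which makes the precursor of iron chelators, measured 63.0, 107, 1.36 and 2.87 (edgeR adjusted p = 0.0884). Of 49 tested heavy-metal-domain proteins, a group singled out after the values were seen, 4 fell and 0 rose.

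The 12 largest rises, Lsi2 among them, were taken among calls with a mean of at least 5 RPKM and a functional annotation. A DESeq2 call in the same direction without tillering library 1 was a further condition, so it is no added support for them. Those of the 12 not given above were of mixed function. Most smaller rises are not described here. A cupredoxin (Os11t0428800-01), a small copper protein, was among the most abundant transcripts at heading, at 690, 388, 8438 and 5502 RPKM (3.77 ± 0.61, adjusted p = 0.0408). A transcript similar to stem 28 kDa glycoprotein (Os05t0188900-00) gave the largest rise of the 12, from 0.660 and 0.352 to 28.1 and 15.7 (5.50 ± 0.60, edgeR adjusted p = 0.0268). It was followed by cyclic nucleotide-gated channel 14 (Os08t0254600-01), from 1.24 and 0.756 to 35.3 and 31.3, and a RING-type zinc finger (Os04t0419550-01), from 1.16 and 0.492 to 31.2 and 21.7. The others of the 12 were a protein kinase (Os11t0160300-01, 4.23), a glutathione S-transferase (Os03t0595600-00, 3.97), a phytochelatin synthetase-like transcript (Os07t0604300-01, 3.58) and a splicing factor similar to SRP30' (Os01t0316600-01, 3.39), by log2 fold change. A helix-loop-helix protein (Os04t0301500-01) measured 31.3, 14.9, 319 and 152 (3.43 ± 0.57), and did not move in Xieqingzao B (0.09, DESeq2 interaction adjusted p = 0.00115, edgeR 0.19). Another, Os07t0101300-01, picked for this value, had the lowest adjusted p of all (0.0196) at 11, 9.0, 60.5 and 72.8. Of 88 tested helix-loop-helix proteins, grouped after the values were seen, 3 rose and 4 fell.

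The other lists held few calls. NB-ARC proteins, the class of intracellular immune receptors, had 1 rise (Os11t0591000-01, 3.37, 3.93, 26.4 and 21.9 RPKM) and 5 falls of 185 tested, the largest in level being Os04t0205200-00 (31.9, 26.3, 1.36 and 3.67). WRKY 41-like Os11t0686900-00 (-3.29 ± 0.55) was the single call of 87 WRKY factors, and an AP2-1-like transcript (Os05t0389000-01, -2.58 ± 0.47) that of 81 AP2/ERF factors. DESeq2 without tillering library 1 called 4 WRKY factors up and 1 down, and 6 AP2/ERF factors up and 1 down. For NB-ARC proteins it called 3 up and 14 down. A starch synthase (Os02t0744700-01) fell from 19.2 and 8.94 to 1.81 and 1.63, 1 of 73 sucrose and starch enzymes, and a glutelin (Os01t0111900-01) from 67.6 and 70.8 to 17.3 and 8.10, 1 of 7 seed storage transcripts. A retrotransposon-like transcript (Os06t0578100-00) fell from 39.0 and 37.9 to 2.04 and 1.47, and stayed at or below 0.332 RPKM in the other genotypes. NAC factors and fermentation enzymes had 0 edgeR calls of 58 and 27, with 5 of each list higher, and 4 and 3 lower, at an unadjusted p under 0.05. DESeq2 without tillering library 1 called 1 NAC factor up and 1 down, and 3 fermentation enzymes up and 1 down. An alcohol dehydrogenase (Os11t0210500-01) measured 258, 261, 971 and 759 (edgeR adjusted p = 0.0973). Another (Os11t0210600-01) went the other way, at 568, 323, 141 and 253 (-1.11 ± 1.02, edgeR adjusted p = 0.575). Of the 27 fermentation transcripts, 12 had a log2 fold change above 0 and 15 below.

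Xieqingzao B and the hybrid share no library with the R9308 comparison, and most R9308 calls had the same sign there. Of the 139 rises, 106 also had a positive log2 fold change in the maternal line and 119 in the hybrid, with medians of 0.65 and 0.86, and of the 217 falls, 184 and 168 had a negative one, with medians of -1.17 and -0.88. The medians over all tested transcripts were 0 and -0.01. The share of all tested transcripts with the same sign was not computed, so how far these counts exceed it is not known. In the same fit, Xieqingzao B itself had 7 rises (0.0237%) and 19 falls (0.0643%), and the hybrid 320 (1.08%) and 176 (0.595%). Of the R9308 calls, 3 rises and 8 falls were shared with the calls of Xieqingzao B. With those of the hybrid 33 rises and 32 falls were shared. The R9308 calls were chosen for their size in R9308, so smaller values in another genotype are no test of a difference.

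**Figure D4:**
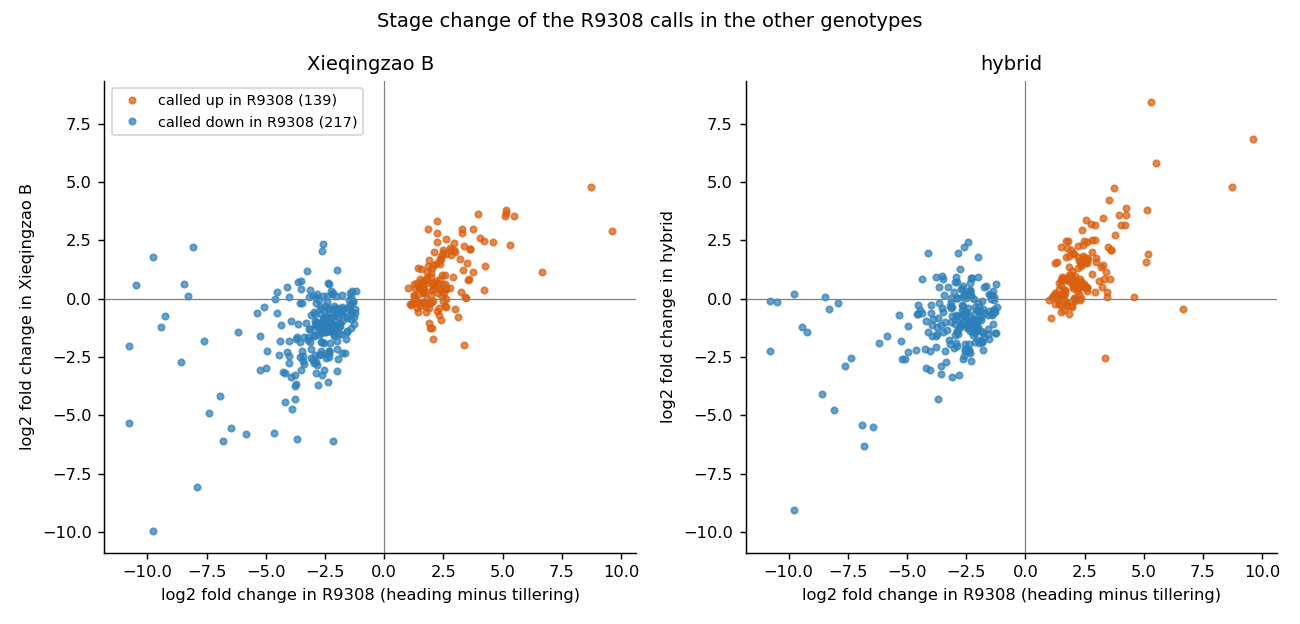
Log2 fold change (heading minus tillering) of the 356 transcripts called in R9308 (horizontal axis) against that in Xieqingzao B (left) and in the hybrid (right). Orange points are the 139 rises and blue points the 217 falls, and 290 and 287 of the 356 have the same sign as in R9308. That share was not computed over all tested transcripts.

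Whether the stage change differed between genotypes was tested by the interaction. The named calls were chosen for a large change in R9308, which is part of the interaction. That choice raises their share with a low interaction p, so the share is no test. EdgeR called 0 transcripts against Xieqingzao B (lowest adjusted p 0.127, 3668 at an unadjusted p under 0.05) and 0 against the hybrid (0.125 and 4666). DESeq2 called 1166 and 1659 of the 29560 tested. DESeq2 called 380 against Xieqingzao B when tillering library 1 was left out. Of the 65 named calls, 24 had a DESeq2 interaction adjusted p of at most 0.05 against Xieqingzao B with all libraries, and 13 of the 24 kept it without tillering library 1, among them GH3.3, the 3 jasmonate transcripts and the 2 tonoplast channels.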

How the data were processed

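Roots of R9308, Xieqingzao B and their hybrid were sequenced at 2 stages, with 2 libraries per group. The authors removed reads of low quality, mapped the rest with RSEM 1.1.11 to the Nipponbare genome (IRGSP build 5.0) after base calling with CASAVA 1.8, and deposited whole counts per transcript. The authors' RPKM values could be recomputed from the counts with the length of each transcript and the sum of each library. The authors' fold changes and p-values between genotypes were not used.

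Counts were tested with edgeR 4.0.16 (R 4.3.3, limma 3.58.1): filterByExpr, TMM, a quasi-likelihood fit of 6 groups and 12 libraries (prior degrees of freedom 2.543). Standard errors were taken from the F statistic. DESeq2 1.42.0 was an alternative, beside the exact test, other scalings, filters and sample sets, locus sums, a replicate block and each library left out. Code was tested on simulated counts and run in Python 3.11.15 with pandas 2.3.3, numpy 2.4.6 and matplotlib 3.10.9.

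The members and the 37 gene lists were chosen with earlier results of these data known. Lists were matched by annotation text or locus. Named transcripts were to be called with and without tillering library 1 by edgeR, at a mean RPKM of at least 5 and with a functional annotation. None met this, so a call by DESeq2 without that library, chosen after seeing the data, replaced the second condition (215 transcripts). The 12 largest rises and 12 largest falls were named, and per list up to 4 calls or, with none, the 2 most abundant members. Fits without hybrid tillering libraries and DESeq2 without tillering library 1 were likewise added later. Replicate numbers were not taken to pair libraries, since the labels tie them to nothing shared. No sequences are shown, since none were used here.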

Additional observations from a re-analysis of the deposited data

How the results depend on the processing

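Each group had 2 libraries. The 356 calls became 2919 with DESeq2, 2197 with edgeR's exact test, 1003 with counts summed per locus, and 0 with the 4 R9308 libraries alone (6959 at an unadjusted p under 0.05). Leaving out each library in turn gave 0 to 1713 calls: 0 without R9308 tillering library 1, without either R9308 heading library or without either hybrid heading library, 431 without R9308 tillering library 2 (94 of them shared with the 356), 77 and 80 without a tillering library of Xieqingzao B, 248 and 253 without a heading library of it, and 1699 and 1713 without a hybrid tillering library. Added after seeing the data, DESeq2 without R9308 tillering library 1 gave 1491. EdgeR without both hybrid tillering libraries gave 1701, and without these and R9308 tillering library 1 gave 398, of which 175 were among the 356. Library size alone, other size factors, other filters, the parental libraries alone and removing photosynthesis from the library sizes gave 266 to 531. With the replicate number as a block there were 58 calls, 57 of them among the 356, and 0 interaction calls. The numbers only name the libraries (correlation of deviations -0.0402 between the R9308 stages, and -0.37 to 0.242 over all pairs of groups).

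The interaction with Xieqingzao B, with 0 calls, had 1166 in DESeq2 and 380 in DESeq2 without R9308 tillering library 1, 1 with the 8 parental libraries, 27 without both hybrid tillering libraries, and 0 to 359 with each library left out in turn, the highest without R9308 tillering library 2. The exact test has no interaction term and was not run for it. The causes were not tested.

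None of the 65 named calls changed direction in 1690 refitted values. Their heading and tillering libraries did not overlap, so leaving libraries out could hardly reverse them, and this is no test of the calls. Named transcripts without a call that changed sign were Os03t0666100-00 on the crown root list (0.02 as reported, -0.0514 with library size alone, -0.0073 with no filter, -0.0028 with 4 libraries, -0.0281 with 8 libraries, and -0.12 both in DESeq2 and in edgeR without R9308 tillering library 1 and hybrid tillering, and -0.20 to 0.17 with each library left out), and the Rubisco transcript Os12t0291100-01 (-8.88 as reported, 1.06 in DESeq2 without R9308 tillering library 1, 1.04 in edgeR without it and hybrid tillering, and -9.87 to 1.04 with each library left out). Leaving out each library gave -0.32 to 0.60 for Os01t0884300-01, -0.14 to 0.68 for Os03t0223400-01, -0.0904 to 0.32 for Os04t0178300-02 and -1.19 to 0.12 for Os07t0252400-01.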
